A study of Mus musculus with 3 samples.

Results

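The 39 genes described here encode subunits and close cofactors of the Polycomb and MLL chromatin complexes. They were taken by symbol from a list: 4 genes of the catalytic core of Polycomb repressive complex PRC2, 4 PRC2 accessory genes, 18 genes of PRC1, 4 genes of the Polycomb deubiquitinase complex PR-DUB, 7 genes of the MLL (Kmt2) family and its cofactors, and 2 H3K27 demethylase genes. All 39 were found among 21887 protein-coding genes of the mouse build mm10. Open chromatin was mapped by ATAC-seq, in which a transposase cuts accessible DNA and inserts sequencing adapters, in cultured hematopoietic stem cells (HSCs) of adult Mx1-Cre-/-;mTORflox/flox mice. These mice had received poly(I:C), a double-stranded RNA mimic that switches on the interferon-inducible Mx1 promoter, but they lacked the Cre transgene, so mTOR was intact in every group. The cells were exposed to 200 nM AZD2014, an ATP-competitive inhibitor of the mTOR kinase, to 1 µM rapamycin, an allosteric mTOR inhibitor, or to the solvent DMSO. Each group is 1 library of 50000 cells. No test between groups was possible, and no difference below has a replicate check. The labels do not say how many mice were used or how long the drugs were applied, and both drug groups are set against the same DMSO library.

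PRC2 methylates histone H3 at the site called H3K27, through the catalytic subunits Ezh1 and Ezh2 held by Eed and Suz12. PRC1 puts ubiquitin on histone H2A and compacts chromatin, and PR-DUB removes that ubiquitin. The MLL family methylates another site, H3K4, at active genes, and Kdm6a and Kdm6b erase the methyl marks that PRC2 leaves. In blood, several of these genes set HSC self-renewal: Bmi1 is needed for it, Kmt2a maintains Hox gene expression, and Asxl1 and Ezh2 are often mutated in myeloid disease.

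The deposited lists held 21321 peaks for AZD2014, 18233 for rapamycin and 17189 for DMSO, and their read depths are unknown. A gene-end peak lies within 1 kb of either end of a gene, and the gene window is the gene with 20 kb on either side. Each peak carries the authors' score, which was used only to rank peaks within a list. Ranks are given as rank percentiles among the 17189 highest-scoring peaks of each list, where 100 is the highest score, so that all lists have equal length. A missing peak means only that the region did not pass the authors' threshold. In a bulk library, a site open in fewer cells and a site less open in every cell cannot be told apart. Of 14 HSC and progenitor markers, 8 had a gene-end peak under AZD2014, 6 under rapamycin and 7 under DMSO. Over all protein-coding genes, 49.5%, 46.9% and 46.0% had a gene-end peak in the same lists. Kit, Meis1, Mecom, Hlf, Tal1 and Runx1 had one in every list, and Slamf1, Procr, Gata2, Fli1 and Ly6a were among those with none. T cell markers had 0 of 5 in every list, B cell markers 2, 2 and 1 of 5 in the AZD2014, rapamycin and DMSO lists, and erythroid markers 3 of 4 in every list. Neutrophil and monocyte markers had 0, 2 and 0 of 5 in those lists, mast cell and basophil markers 0, 1 and 0 of 4, and non-blood markers 1 of 5 in each list, at Col1a1. The ranks of the markers moved as well: over the 6 HSC and progenitor markers with a gene-end peak in both lists at equal length, the median shift in rank percentile was -12.7 points for AZD2014 minus DMSO, with Meis1 at -28.6, Hlf at -18.3, Kit at -15.1, Runx1 at -10.4, Mecom at -3.74 and Tal1 at 13.4 points. For rapamycin minus DMSO their median was -4.53 points, and that of the 3 erythroid markers was -11.1 points. The part of cell makeup in the results below was not tested.

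The Polycomb and MLL genes were mostly open at their ends, in all 3 groups. A gene-end peak was listed for 35 of 39 genes under AZD2014, where 49.5% of all protein-coding genes had one. Under rapamycin it was 35 of 39, against 46.9% of all genes, and under DMSO 32 of 39, against 46.0% of all genes. The same 32 genes had a gene-end peak in every list, and Cbx7, Asxl3 and Kdm6a had none in any. Their peaks also ranked high. The highest-scoring gene-end peak had a median rank percentile of 80.2 under AZD2014 (35 genes), 84.7 under rapamycin (35) and 83.4 under DMSO (32). Over all genes with such a peak the medians were 70.9, 71.3 and 71.0 in the same lists. The member medians cover different genes: Ezh1, Phf19 and Kdm2b, at 52.5, 9.0 and 24.95 under AZD2014, had no DMSO value. Shifts over shared genes are given below. These peaks were wider too, with medians of 1060 bp under AZD2014, 1130 bp under rapamycin and 903.5 bp under DMSO, against 942, 906 and 783 bp over all genes with one.

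**Figure D1:**
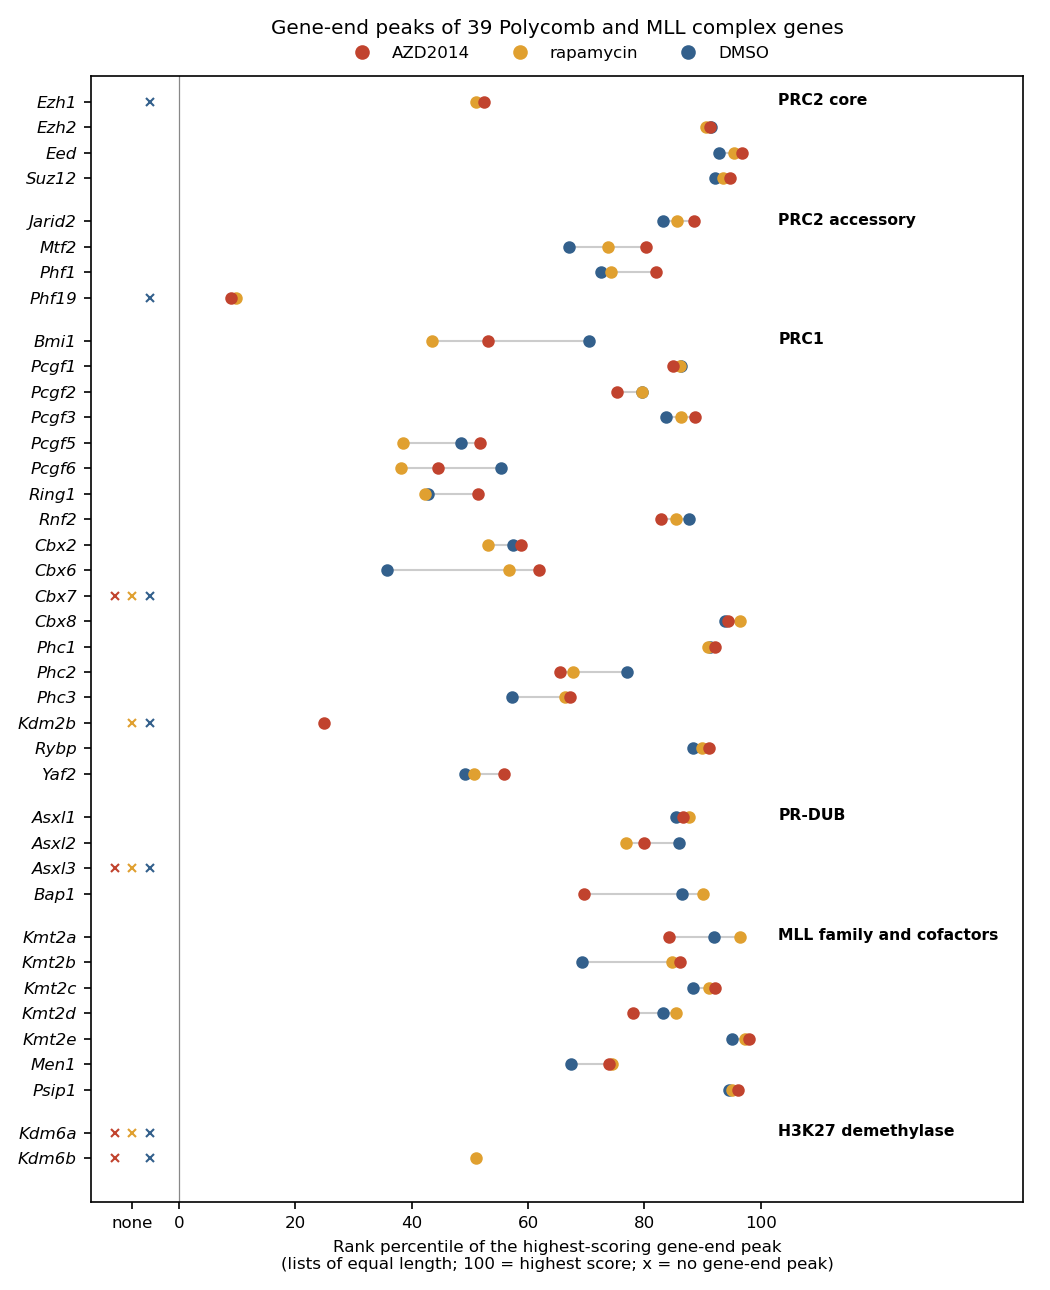
Rank percentile (horizontal axis, 100 = highest score in a list of 17189 peaks) of the highest-scoring gene-end peak of each of the 39 genes (rows, grouped by complex), with 1 point per library and crosses where no gene-end peak was listed. Ezh1, Phf19, Kdm2b and Kdm6b have crosses in some lists and points in others, Cbx7, Asxl3 and Kdm6a have crosses in all, and most of the other genes keep their points close together.

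Few of the 39 genes differed between the lists in whether they had a gene-end peak. Every difference from DMSO was a gene-end peak listed under a drug and not under DMSO. Present under AZD2014 but missing under DMSO were those of Ezh1, Phf19 and Kdm2b, 3 of 39 genes, where 4.63% of all genes had this pattern. No member had the reverse, which 1.09% of all genes showed. Listed under rapamycin and not under DMSO were those of Ezh1, Phf19 and Kdm6b, again 3 of 39, against 3.05% of all genes. The reverse was seen at no member and at 2.09% of all genes. At Kdm6b, the AZD2014 and DMSO lists had a peak overlapping the rapamycin one, with its edge beyond the 1 kb limit. With such overlapping partners counted (added after seeing the data), the difference in members between rapamycin and DMSO was 2. The shares over all genes are given without this step. Between the drugs, the gene-end peak of Kdm2b was listed under AZD2014 but not rapamycin, 1 of 39 genes against 3.79% of all genes. Kdm6b had one under rapamycin and not AZD2014, 1 of 39 against 1.21%. With lists of equal length the same genes differed from DMSO, and the shares over all genes were then 3.03% (AZD2014 and not DMSO), 1.96% (DMSO and not AZD2014), 2.66% (rapamycin and not DMSO) and 2.34% (DMSO and not rapamycin).

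Where a gene had a gene-end peak in both lists compared, the rank mostly stayed within 10 points. Against DMSO, AZD2014 ranks were at least 10 points higher at 4 of 32 members (Cbx6, Kmt2b, Mtf2 and Phc3), where 15.8% of all genes were. They were at least 10 points lower at 4 of 32 (Bmi1, Bap1, Phc2 and Pcgf6), against 12.4% of all genes. Phc3 lay just inside this limit and Phf1, at 9.55 points, just outside it. Rapamycin ranks were at least 10 points higher than DMSO ranks at 2 of 32 members (Cbx6 and Kmt2b), against 16.1% of all genes, and lower at 2 of 32 (Bmi1 and Pcgf6), against 13.6%. Pcgf5, at -9.82 points, lay just outside. AZD2014 ranks exceeded rapamycin ranks by at least 10 points at 1 of 34 members (Pcgf5), against 12.8% of all genes, and were lower at 2 of 34 (Bap1 and Kmt2a), against 11.8%. The 2 drugs were given at different doses, so these are values set side by side. The members also ranked higher than other genes with a gene-end peak, with DMSO medians of 83.4 against 71.0 over all such genes. The shares were not matched for rank, and a peak at the top of a list cannot rise by 10 points.

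The middle of the distribution of gene-end rank shifts lay slightly above 0 for these genes. The median rank shift was 2.12 points for AZD2014 minus DMSO over 32 members, against 0.297 over 9632 genes. For rapamycin minus DMSO it was 1.69 points over 32 members, against 0.196 over 9550 genes. For AZD2014 minus rapamycin it was 1.20 points over 34 members, against 0.0931 over 9741 genes. The members' ranks were higher than under DMSO at 21 genes and lower at 11 under AZD2014, where 5029 of 9632 genes were higher and 4601 lower. Under rapamycin they were higher at 20 and lower at 12, where 4907 of 9550 genes were higher and 4638 lower. The HSC and progenitor markers, whose shifts are given above, mostly ranked lower under AZD2014.

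**Figure D2:**
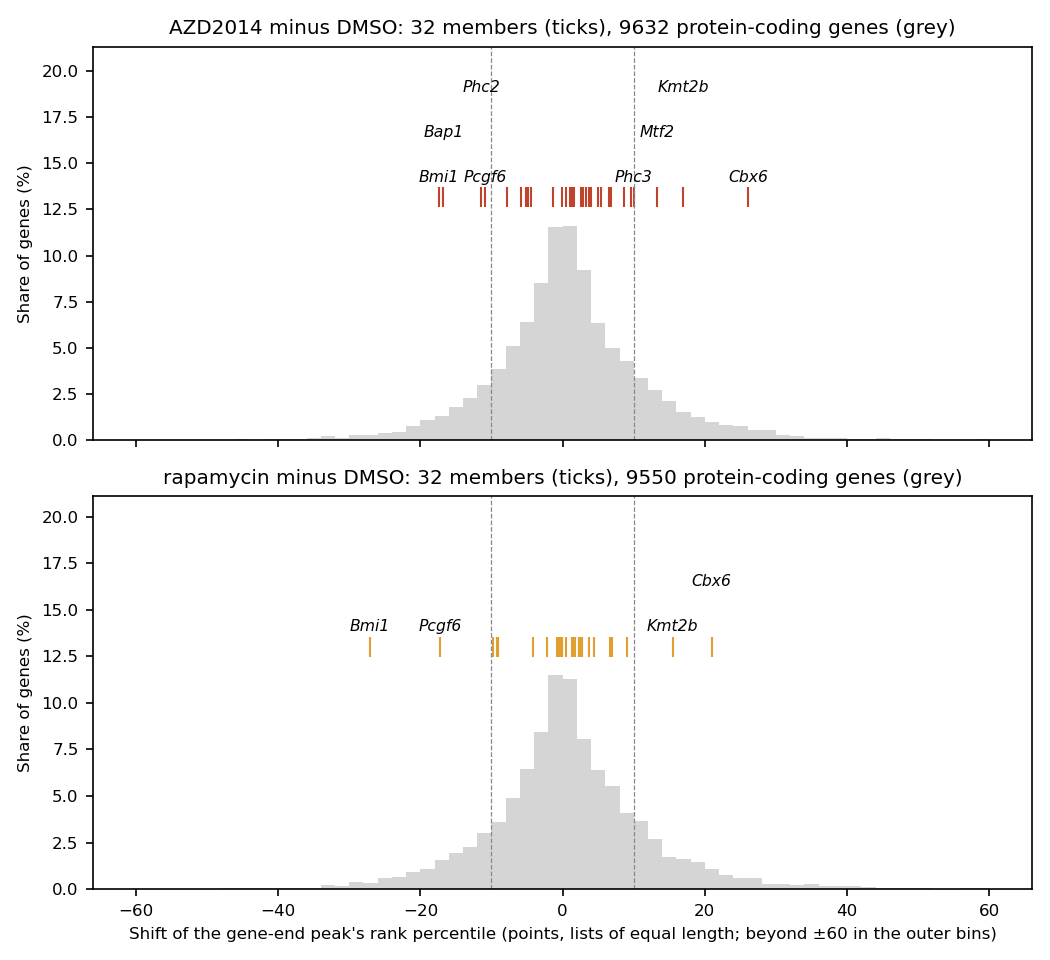
Shift of the gene-end peak's rank percentile (horizontal axis, in points) under AZD2014 (upper panel) and rapamycin (lower panel), each minus DMSO, as the share of all protein-coding genes per bin (grey bars, vertical axis in %) with each of 32 members as a tick placed above the bars. Dashed lines mark 10 points, and genes beyond them are named: Cbx6 stands highest in both panels and Bmi1 lowest.

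In the PRC2 core, the genes for Ezh2, Eed and Suz12 were open at their starts at high ranks in every list, and the start of Ezh1 was listed under both drugs and not under DMSO. Ezh2, the main H3K27 methyltransferase of dividing cells, had rank percentiles of 91.2 under AZD2014, 90.6 under rapamycin and 91.4 under DMSO. Eed, which binds the methyl mark and stimulates the enzyme, had 96.8, 95.4 and 92.8 in the same lists. Suz12, the scaffold of the complex, had 94.7, 93.5 and 92.1. These 3 genes thus kept ranks close to those under DMSO, with shifts between -0.733 and 4.06 points.

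Ezh1 encodes the weaker PRC2 methyltransferase, which is kept in non-dividing cells. Its start peak lay at chr11:101226096-101226848 under AZD2014, with a score of 192 and a rank percentile of 52.5, and at chr11:101226043-101226769 under rapamycin, with a score of 141 and a rank percentile of 51.1. Both cover the annotated start at position 101226463 on the minus strand, and the nearest DMSO peak lay 5574 bp outside the gene. The other 2 regions of the Ezh1 window were listed in every group. The region 5.8 to 5.9 kb before the start had percentiles of 46.2 under AZD2014, 44.9 under rapamycin and 31.3 under DMSO, and the region beyond the gene, at the end of Plekhh3, had 43.7, 42.5 and 33.5. All 3 regions thus had their lowest rank, or no peak, under DMSO. Few peaks of such rank, at starts or elsewhere, lacked a DMSO partner: of 1719 AZD2014 peaks within 5 percentile points of the Ezh1 peak, 47 (2.73%) had no overlapping DMSO peak. Of 1719 rapamycin peaks around its rank, 71 (4.13%) had none. Ezh1 had already been singled out in an earlier look at these data, so these shares describe a gene chosen with its result known.

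The 200 bases before the annotated starts of the 2 PRC2 methyltransferase genes are shown because one start was listed in every group and the other under the drugs and not under DMSO. The sequences are RefSeq's on GRCm38.p6, read 5′ to 3′ on the gene's strand, with each CG dinucleotide in capitals. The Ezh1 stretch is chr11:101226464-101226663 and the Ezh2 stretch chr6:47595031-47595230, both on the minus strand.
Ezh1: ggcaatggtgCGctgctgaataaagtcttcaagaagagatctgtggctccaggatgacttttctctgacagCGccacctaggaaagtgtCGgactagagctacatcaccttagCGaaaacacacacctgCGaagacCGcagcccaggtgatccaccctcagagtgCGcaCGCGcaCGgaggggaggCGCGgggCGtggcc
Ezh2: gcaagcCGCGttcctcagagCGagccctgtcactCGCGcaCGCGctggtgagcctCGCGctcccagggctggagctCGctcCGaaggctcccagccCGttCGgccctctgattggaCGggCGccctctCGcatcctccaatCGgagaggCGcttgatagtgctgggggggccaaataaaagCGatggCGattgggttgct
The Ezh1 stretch holds 13 CG dinucleotides and the Ezh2 stretch 20.

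Among the PRC2 accessory genes, Jarid2, Mtf2 and Phf1 ranked higher under both drugs than under DMSO. Phf19 had a weak peak close inside its start under the drugs and none there under DMSO. Mtf2, a Polycomb-like protein that brings PRC2 to CG-rich DNA, had rank percentiles of 80.2 under AZD2014, 73.7 under rapamycin and 67.0 under DMSO. Its start region was 1 peak of 1376 bp under AZD2014 and of 1192 bp under rapamycin, whereas the DMSO list had 2 peaks there, of 573 and 396 bp. The AZD2014 rank was 13.2 points above DMSO and the rapamycin rank 6.69 points above it. As the region was split under DMSO alone, these shifts also depend on how the caller joined it. Phf1, another Polycomb-like protein, had 82.1, 74.3 and 72.5, at a peak that is also at the end of Kifc5b. Jarid2, a DNA-binding PRC2 cofactor, had 88.4, 85.6 and 83.1.

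Phf19, the third Polycomb-like gene, had a gene-end peak at chr2:34913065-34913683 under AZD2014, with a score of 77.4 and a percentile of 9.0, and at chr2:34913199-34913658 under rapamycin, with a score of 61.2 and a percentile of 9.82. Neither peak reached the annotated start at position 34913976, and their midpoints lay 602 and 548 bp inside the gene from it. Both peaks were near the bottom of their lists. At such ranks a missing partner was common: 55.8% of AZD2014 peaks and 59.9% of rapamycin peaks within 5 points had no DMSO partner. The leading peak of the gene lay inside it, 8.7 to 8.9 kb from the start, at percentiles of 96.8 under AZD2014, 98.8 under rapamycin and 91.7 under DMSO. The Phf19 promoter is shown because a CG-rich start was beside a peak of low rank (chr2:34913977-34914176, minus strand, 26 CG dinucleotides).
Phf19: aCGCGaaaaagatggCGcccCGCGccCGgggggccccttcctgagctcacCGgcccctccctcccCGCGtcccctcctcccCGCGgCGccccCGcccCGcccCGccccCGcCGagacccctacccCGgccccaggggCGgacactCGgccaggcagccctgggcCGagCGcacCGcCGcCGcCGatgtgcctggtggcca

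PRC1 was the largest group, and its ranks lay on both sides of the DMSO ranks. Of its 18 genes, 17 had a gene-end peak under AZD2014, 16 under rapamycin and 16 under DMSO. With AZD2014, 10 ranked above DMSO and 6 below, with a median shift of 1.19 points, where 5029 of 9632 genes ranked above and 4601 below. With rapamycin 6 ranked above and 10 below, with a median of -0.163 points, where 4907 of 9550 genes ranked above and 4638 below. The 2 catalytic genes differed in rank. Rnf2 (Ring1B), the main H2A ubiquitin ligase, had percentiles of 82.8 under AZD2014, 85.4 under rapamycin and 87.6 under DMSO. Ring1 (Ring1A), the other catalytic gene, had 51.5, 42.3 and 42.8, at a peak that is also at the end of H2-Ke6.

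The Pcgf genes encode the ring-finger partners that define PRC1 variants, and Bmi1 (Pcgf4) ranked lower under both drugs. Its start peak, which spans the end of Commd3 as well, had percentiles of 53.1 under AZD2014, 43.4 under rapamycin and 70.5 under DMSO. The shifts against DMSO were -17.4 points under AZD2014 and -27.1 points under rapamycin. The peak was wider under the drugs, at 1448 bp with AZD2014 and 1419 bp with rapamycin, than under DMSO, at 842 bp. Another region, 4.7 to 4.8 kb before the start at the far end of Commd3, ranked the other way, with 42.2 under AZD2014, 60.04 under rapamycin and 34.4 under DMSO.

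Pcgf6, a subunit of the E2F6-bound variant, had percentiles of 44.5 under AZD2014, 38.2 under rapamycin and 55.4 under DMSO, so both drugs again ranked below DMSO, with shifts of -10.9 and -17.2 points. Pcgf5 had 51.7 under AZD2014, 38.6 under rapamycin and 48.4 under DMSO at its outer start. Its inner start, at position 36409748, ranked far higher, with 87.9, 90.3 and 82.2. At the outer start the peak was whole under AZD2014 (1612 bp) and split into 2 peaks under rapamycin and under DMSO, so that its rank also depends on how the caller joined it. Pcgf1, which acts in the Kdm2b-bound variant, had 84.9, 86.2 and 86.2, and Pcgf3 had 88.7, 86.3 and 83.7. Pcgf2 had 75.2, 79.6 and 79.7 at a peak shared with the end of Psmb3. At their gene ends, Bmi1, Pcgf6 and Pcgf5 ranked below Pcgf1, Pcgf2 and Pcgf3 in all 3 lists, and the inner start of Pcgf5 ranked with the higher genes.

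The chromobox (Cbx) genes encode the readers of the H3K27 methyl mark, and Cbx6 showed the largest rank shift of the 32 genes under AZD2014 and the largest upward one under rapamycin. Its start peak, which also lies at the end of Npcd, had percentiles of 61.8 under AZD2014, 56.7 under rapamycin and 35.8 under DMSO. The shifts were 26.1 and 21.0 points. Cbx8 had 94.3, 96.3 and 93.9, among the highest ranks of the complex, and Cbx2 had 58.8, 53.2 and 57.4.

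Cbx7, a reader linked to HSC self-renewal, had no peak within 1 kb of either gene end, but its annotated start inside the RefSeq gene was listed in every group. That start, at position 79932646 on the minus strand, had percentiles of 4.49 under AZD2014, 54.8 under rapamycin and 16.6 under DMSO. A region in the flank, 36.7 to 36.9 kb downstream of that start, had 33.8, 54.2 and 4.87. The other region, 4.7 to 4.8 kb inside that start, had 41.0, 32.2 and 35.3. The start and the flank region were thus highest under rapamycin, and the region between them moved by less than 10 points.

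The promoters of Cbx6 and Bmi1 are shown as those of the genes with the largest upward and downward rank shifts against DMSO. The Cbx6 stretch is chr15:79834334-79834533 on the minus strand and the Bmi1 stretch chr2:18676818-18677017 on the plus strand.
Cbx6: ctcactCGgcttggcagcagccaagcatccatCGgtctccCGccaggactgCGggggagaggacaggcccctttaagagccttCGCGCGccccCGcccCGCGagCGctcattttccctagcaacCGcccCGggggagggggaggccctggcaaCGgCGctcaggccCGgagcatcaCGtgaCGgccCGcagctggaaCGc
Bmi1: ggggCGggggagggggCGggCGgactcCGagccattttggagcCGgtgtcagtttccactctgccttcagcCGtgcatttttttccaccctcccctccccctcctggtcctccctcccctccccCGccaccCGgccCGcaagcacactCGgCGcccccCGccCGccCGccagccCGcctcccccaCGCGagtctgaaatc
The Cbx6 stretch holds 20 CG dinucleotides and the Bmi1 stretch 17.

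The remaining PRC1 genes include the Polyhomeotic (Phc) scaffolds, whose SAM domains polymerise, and the subunits of variant PRC1. Phc1 had percentiles of 92.2 under AZD2014, 90.9 under rapamycin and 91.2 under DMSO. Phc3 had 67.2, 66.3 and 57.2, and Phc2 65.5, 67.7 and 76.9. The inner start of Phc2 at position 128727571 had 68.3, 73.8 and 83.2, so both of its main starts ranked lower under the drugs than under DMSO. Another annotated start, at 128688738, was listed under AZD2014 (24.0) and rapamycin (26.7) and not under DMSO. The Phc2 window held 6 peaks under AZD2014, 4 under rapamycin and 5 under DMSO. Rybp, which joins Ring1 proteins to DNA-binding factors, had 91.0, 89.9 and 88.3, and its relative Yaf2 had 55.9, 50.8 and 49.2.

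Kdm2b, whose CXXC zinc finger brings variant PRC1 to unmethylated CG islands, had a peak at its inner start in every group and at its outer start under AZD2014. The outer start peak at chr5:122988899-122989540 had a score of 102 and a percentile of 24.95 under AZD2014, and the rapamycin and DMSO lists had none. Of AZD2014 peaks within 5 points of it, 35.7% had no DMSO partner and 26.2% no rapamycin partner. The inner start had percentiles of 86.9 under AZD2014, 81.6 under rapamycin and 91.8 under DMSO, highest under DMSO. The window held 5 peaks under AZD2014, 1 under rapamycin and 2 under DMSO, the widest spread of the 39 genes. At the edge of the window, the AZD2014 peak at the end of Rnf34 just reached inside, and the rapamycin and DMSO peaks that overlap it stayed outside. Both starts are shown because they were listed in different groups. The inner stretch is chr5:122900351-122900550 and the outer one chr5:122989100-122989299, both on the minus strand.
Kdm2b inner: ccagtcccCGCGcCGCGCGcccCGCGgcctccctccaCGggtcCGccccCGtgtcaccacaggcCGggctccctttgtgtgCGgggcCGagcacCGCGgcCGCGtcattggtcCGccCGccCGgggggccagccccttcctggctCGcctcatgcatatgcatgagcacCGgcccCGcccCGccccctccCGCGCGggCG
Kdm2b outer: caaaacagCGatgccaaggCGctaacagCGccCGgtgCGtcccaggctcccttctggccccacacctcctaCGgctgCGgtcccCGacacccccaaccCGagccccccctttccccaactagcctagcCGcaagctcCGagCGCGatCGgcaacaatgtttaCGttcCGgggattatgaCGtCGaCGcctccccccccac
The inner stretch holds 28 CG dinucleotides and the outer one 19.

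**Figure D3:**
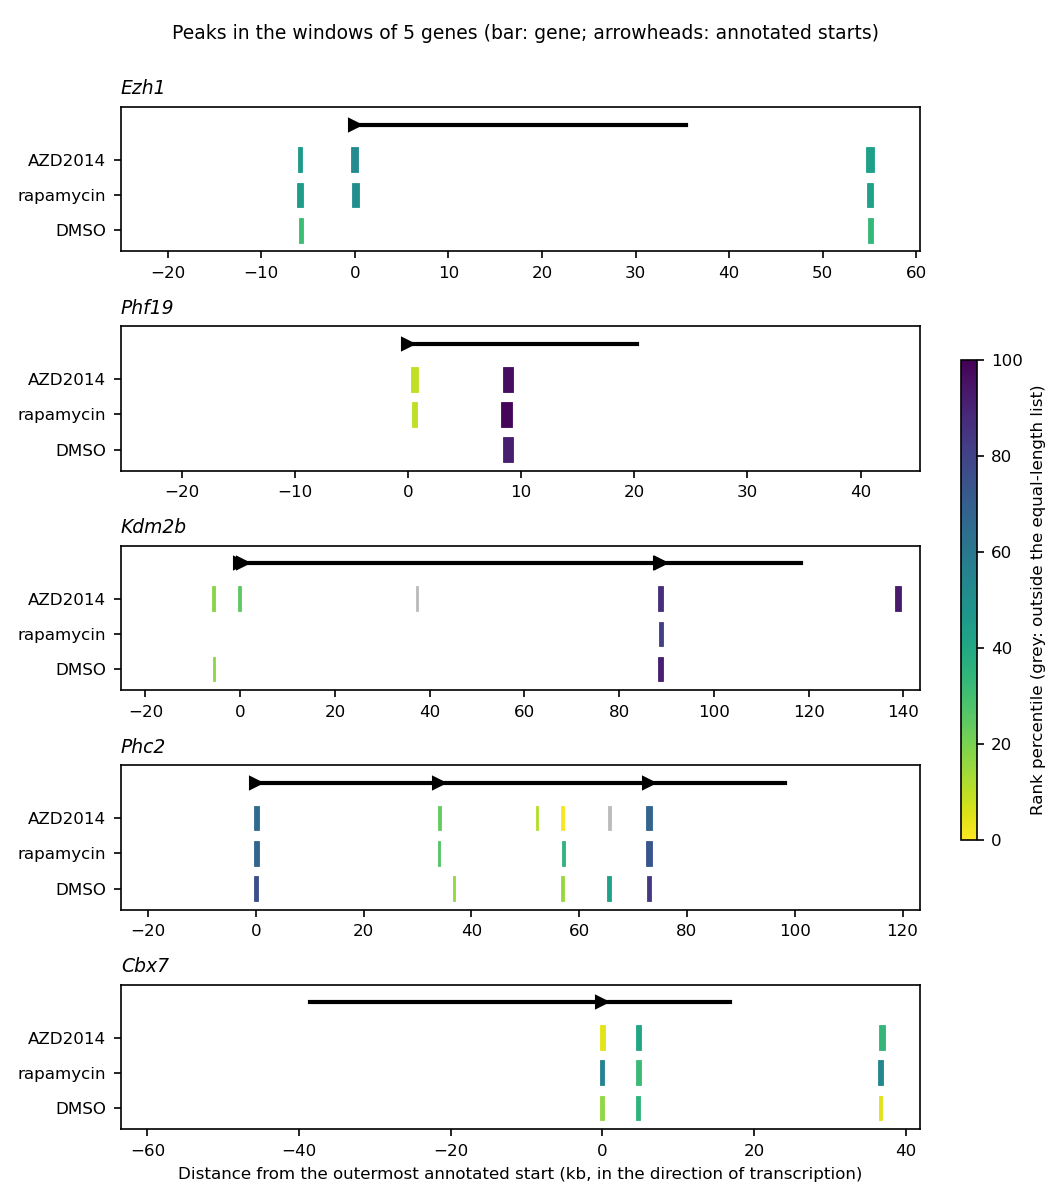
Peaks in the windows of Ezh1, Phf19, Kdm2b, Phc2 and Cbx7, drawn to scale by distance from the outermost annotated start (horizontal axis, kb), with 1 row per library, the RefSeq gene as a black bar, annotated starts as arrowheads and colour as rank percentile. At the Ezh1 start and close inside the Phf19 start, the rows are filled under both drugs and empty under DMSO. The outer Kdm2b start is filled under AZD2014, and the Cbx7 start is darkest under rapamycin.

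In PR-DUB, Bap1, the H2A deubiquitinase and a tumour suppressor, ranked lower under AZD2014 than in the other lists. Its start peak, which is also at the end of Phf7, had percentiles of 69.6 under AZD2014, 90.1 under rapamycin and 86.4 under DMSO. The shift was -16.8 points for AZD2014 minus DMSO, 3.71 points for rapamycin minus DMSO and -20.5 points for AZD2014 minus rapamycin. Asxl1, the Bap1 cofactor often mutated in myeloid disease, had 86.6, 87.7 and 85.4. Asxl2 had 79.98, 76.7 and 85.9. Asxl3 had no peak in its window in any list, and the nearest peaks were 454772, 454735 and 454798 bp away in the AZD2014, rapamycin and DMSO lists.

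All 7 genes of the MLL family and its cofactors had a gene-end peak in every list. Under rapamycin all 7 ranked above DMSO, by 0.50 to 15.5 points with a median of 2.72, where 4907 of 9550 genes ranked above. This count takes Kmt2d at its 3′ end, and at the Kmt2d start the shift was -5.63 points. Under AZD2014 5 ranked above and 2 below, with a median of 2.93, where 5029 of 9632 genes ranked above and 4601 below. Kmt2d, again taken at its 3′ end, was among those below, and at its start the shift was 3.95 points. Kmt2a (MLL1), the H3K4 methyltransferase that is broken by translocation in acute leukemia, had percentiles of 84.1 under AZD2014, 96.3 under rapamycin and 91.9 under DMSO. The shift was -7.76 points for AZD2014 minus DMSO, 4.44 points for rapamycin minus DMSO and -12.2 points for AZD2014 minus rapamycin. Kmt2b (MLL2), its closest relative, moved differently, with 86.2 under AZD2014, 84.7 under rapamycin and 69.2 under DMSO, at a peak shared with the end of Zbtb32. The 2 drugs were 16.99 and 15.5 points above DMSO there, and the peak was 1519, 1284 and 876 bp wide in the 3 lists.

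Kmt2c and Kmt2d methylate H3K4 at enhancers. Kmt2c had 92.1 under AZD2014, 91.1 under rapamycin and 88.4 under DMSO. For Kmt2d, the highest-scoring gene-end peak lay at its 3′ end, next to Prkag1, with 78.0, 85.5 and 83.2, and its start had 73.7, 64.1 and 69.8. Kmt2e (MLL5), an MLL relative needed for normal HSC function, had the highest gene-end rank of all 39 genes in each list, with 97.9, 97.2 and 94.95. Its peak was also the widest of the best gene-end peaks, at 2342 bp under AZD2014, 2276 bp under rapamycin and 2176 bp under DMSO. Psip1 (LEDGF), which tethers menin and MLL to chromatin, had 96.05, 94.95 and 94.45. Men1 (menin), the scaffold between MLL and Psip1, had 73.9, 74.3 and 67.4, with both drugs above DMSO.

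The H3K27 demethylase genes were open close to the edge of the gene-end window, so their gene-end status was set by small distances. For Kdm6a (UTX), peaks covered the annotated start in every list, at percentiles of 81.9 under AZD2014, 79.7 under rapamycin and 85.4 under DMSO. Their edges lay 1062, 1018 and 1219 bp from the outer RefSeq gene end. For Kdm6b (JMJD3), the rapamycin peak began 975 bp from the gene end and the AZD2014 and DMSO peaks that overlap it began 1054 and 1086 bp from it. Their percentiles were 51.1 under rapamycin, against 50.2 under AZD2014 and 47.8 under DMSO. The gene-end call for Kdm6b under rapamycin thus rests on where the peak edges fell, and all 3 groups had a peak there. Inside Kdm6b, a stretch covered by 1 DMSO peak of 3581 bp was split into 2 peaks under AZD2014 and 3 under rapamycin. A further region in the gene, at chr11:69401180-69401781, was listed under AZD2014 (23.5) and rapamycin (39.1) and not under DMSO.

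The start-based view gave a similar picture. For 30 of the 39 genes an annotated start was at hand. A peak within 1 kb of one was listed for 29 of 30 under AZD2014, against 51.8% of all genes with a start. It was 29 of 30 under rapamycin, against 49.5%, and 27 of 30 under DMSO, against 48.5%. The gene with none in any list was Pcgf2, whose gene-end peak lies 3.4 to 3.6 kb from its annotated start. The members that lacked a start peak under DMSO and had one under both drugs were Ezh1 and Phf19.

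The windows of the 39 genes held 91 distinct peaks under AZD2014, 76 under rapamycin and 77 under DMSO, and 83, 74 and 77 with lists of equal length. Merged, they formed 93 regions, of which 67 (72.0%) were in all 3 lists, where 59.0% of 21031 regions in the windows of all genes were. At gene ends 51 of 56 member regions (91.1%) were in all lists, against 81.5%, and away from gene ends 16 of 37 (43.2%), against 37.5%. Of the rest, 11 (11.8%) were in the AZD2014 list alone, against 14.4% of regions in the windows of all genes. In the rapamycin list alone were 2 (2.15%), against 6.31%, and in the DMSO list alone 3 (3.23%), against 5.20%. A further 5 (5.38%) were in both drug lists and not DMSO, against 8.03%, at Ezh1, Phf19, Kdm6b, Jarid2 and Phc2. Under AZD2014 and DMSO but not rapamycin were 5 (5.38%), against 5.37%. No member region was shared by rapamycin and DMSO without AZD2014, against 1.645% of regions in the windows of all genes.

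**Figure D4:**
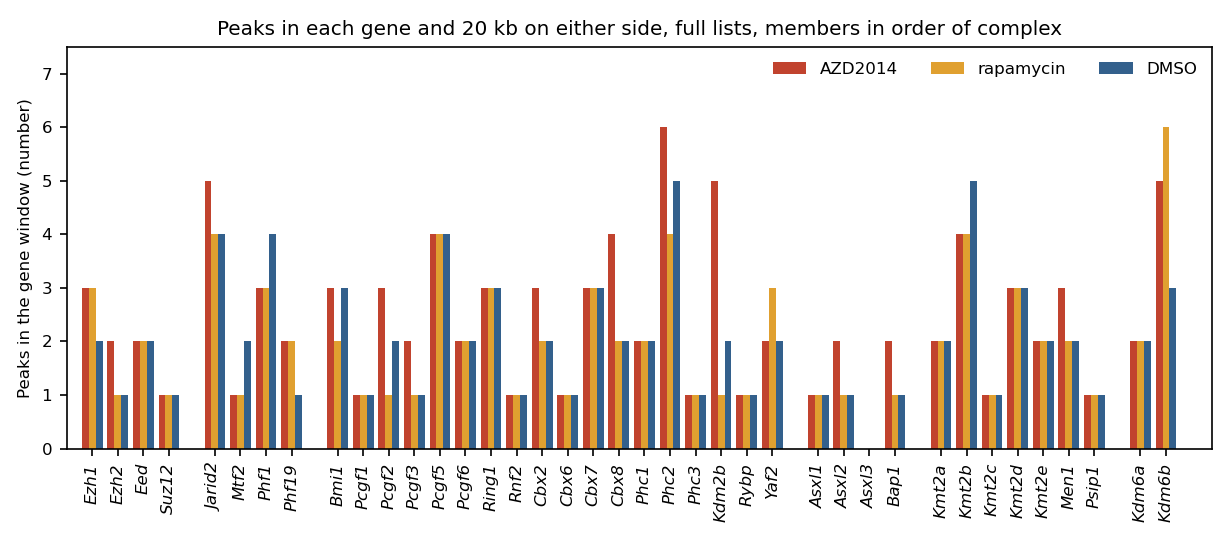
Number of peaks (vertical axis) in the window of each of the 39 genes (horizontal axis, gene with 20 kb on either side) in the AZD2014, rapamycin and DMSO lists, at full list lengths. Kdm2b has 5, 1 and 2 peaks, Kdm6b 5, 6 and 3, Phc2 6, 4 and 5, and Asxl3 none.

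Seen from single peaks, the member windows had a smaller share of peaks without a partner than the windows of all genes did. The shares were not matched for rank or place. Regions at gene ends were 56 of 93 in the member windows and 10294 of 21031 in the windows of all genes. Of the AZD2014 peaks 17 of 91 (18.7%) had no overlapping DMSO peak, against 26.0% of peaks in all gene windows, and 3 of 77 DMSO peaks (3.90%) had no AZD2014 partner, against 9.57%. Of the rapamycin peaks 7 of 76 (9.21%) had no DMSO partner, against 19.2%, and 8 of 77 DMSO peaks (10.4%) had no rapamycin partner, against 14.9%. Between the drugs, 16 of 91 AZD2014 peaks (17.6%) had no rapamycin partner, against 22.8%, and 2 of 76 rapamycin peaks (2.63%) had no AZD2014 partner, against 10.6%. The window counts at Pcgf2 were 3, 1 and 2, and at Cbx8 4, 2 and 2, and the Cbx8 window overlaps that of Cbx2, so they share peaks.

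Ranks were also compared at the 67 regions found in all 3 lists of equal length. Of these regions, 7 (10.4%) ranked at least 10 points higher under AZD2014 than under DMSO, where 17.3% of 11898 common regions in the windows of all genes did, and 12 (17.9%) at least 10 points lower, against 16.4%. Under rapamycin 10 (14.9%) ranked at least 10 points higher, against 18.0%, and 4 (5.97%) lower, against 17.6%. The median shift of the 67 regions was 0.431 points for AZD2014 minus DMSO, against 0.0640, with 35 higher and 32 lower. For rapamycin minus DMSO it was 1.64 points, against -0.0116, with 38 higher and 29 lower. The AZD2014 median was thus smaller here than at the gene-end peaks. The highest shifts under rapamycin were at the Cbx7 flank region, 49.3 points above DMSO, and the Cbx7 start, 38.2 points above it. Under AZD2014 the shifts of these regions against DMSO were 28.9 and -12.1 points. The lowest shifts under rapamycin were at the Bmi1 start, with -27.1 points, and inside Kdm6b, with -26.9 points, where the drug peaks were split.

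The promoters of these genes were rich in CG dinucleotides. In 41 annotated promoters of 30 members, each of 300 bases (250 before the start and 50 from it), the median was 24 CG dinucleotides, against 13 in 21263 promoters of 17492 genes. The counts ranged from 2 to 56 among the members. The starts listed under a drug and not under DMSO spread over that range: the Ezh1 promoter had 23, that of Phf19 had 38, the 2 outer ones of Kdm2b had 28 and 18, and the middle one of Phc2 had 2. The CG count is a property of the reference sequence and its part in the peak ranks was not tested.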

How the data were processed

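Per the labels' protocols, 50000 cells per library were transposed for 30 min at 37 °C. CASAVA and the build mm10 are named, per the submitters' processing notes. The aligner, the peak caller's settings, duplicate handling and any correction for the transposase's offset are not stated in the sources used here, and these steps set which weak peaks are listed. The authors deposited 1 peak list per library with a score per peak, at least 50.0, so peaks were called per sample. Genes came from RefSeq on GRCm38.p6 and annotated starts and promoters from its promoter table (30 of 39 members, 17492 of all genes).

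Peaks were shared when they overlapped by 1 bp. Ranks were compared among the 17189 highest scores of each list, and shifts of 10 points or more were counted. Genes given in full were those whose gene-end status differed, whose window counts differed by 2 or more, whose rank moved by 10 points or more, the 5 highest ranked and the catalytic or scaffold genes. The members, the lists and the rules were chosen with earlier results of these data known. The alternatives were the upper 50% of each list, gene ends of 500 or 2500 bp, windows of 50 kb or the gene body, other rank bases, and a 50% reciprocal overlap or a distance of 500 bp. Peak overlap and ranking were checked on simulated lists. Python 3.11.15, numpy 2.4.6, pandas 2.3.3, scipy 1.17.1 and matplotlib 3.10.9 were used.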

Additional observations from a re-analysis of the deposited data

How the results depend on the processing

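Of 60 alternative values, 43 kept their direction and stayed within 1.5 times the reported one, 14 moved further and 3 reversed, and the cause was not tested. The number of members with a gene-end peak, AZD2014 minus DMSO, was 5 in the upper 50% of each list, against 3 as reported. For rapamycin minus DMSO it was 1 with gene ends of 500 bp, against 3. For AZD2014 minus rapamycin it was 3 in the upper 50%, and 1 with gene ends of 500 bp, of 2500 bp or with overlapping partners counted (added after seeing the data), against 0. The ratio of window peaks, rapamycin over DMSO, was 0.987 as reported and lay above 1 in the upper 50% (1.06), in the gene body alone (1.07) and in windows of 50 kb (1.02). The median rank shift for AZD2014 minus DMSO was 1.27 points with gene ends of 2500 bp and 1.18 at annotated starts (added after seeing the data), against 2.12. For AZD2014 minus rapamycin it was 2.17 ranked among gene-end peaks, against 1.20. With a reciprocal overlap of 50%, 9 DMSO peaks lacked an AZD2014 partner (3 as reported), 13 rapamycin peaks lacked a DMSO partner (7), 14 DMSO peaks lacked a rapamycin partner (8) and 6 rapamycin peaks lacked an AZD2014 partner (2). The last count was 1 at a distance of up to 500 bp. The best gene-end peaks of 8 members, those of Bmi1, Cbx6, Kmt2b and Bap1 among them, also lie at another gene's end and cannot be assigned to 1 gene.

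No paired analysis was possible because each condition is 1 library with no replicate number. Spread between samples is unknown, and the files give no read counts, so no difference was set against counting error or depth. Scores were used for rank alone, and openness at shared peaks was not measured.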

Other observations

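Beyond the 39 members, 52 further genes of Polycomb, COMPASS and allied complexes were counted. A gene-end peak was listed for 43 of them under AZD2014, 39 under rapamycin and 37 under DMSO. Over all protein-coding genes the shares were 49.5%, 46.9% and 46.0%. The peak was listed under AZD2014 and not DMSO at 6 of the 52 and the reverse at 0, against 4.63% and 1.09% of all genes. It was listed under rapamycin and not DMSO at 3 of the 52 and the reverse at 1, against 3.05% and 2.09%. Mllt10, a DOT1L cofactor gene and MLL fusion partner, had a gene-end peak of rank percentile 95.1 under AZD2014 and none in the other lists. Whether a peak of those lists overlapped it from beyond the 1 kb limit was not checked, for this gene or those that follow. Mga, which anchors the E2F6-bound PRC1 variant, had percentiles of 7.20 under AZD2014 and 43.5 under rapamycin, and no gene-end peak under DMSO. L3mbtl3 had 29.5 under AZD2014 and 21.3 under rapamycin, and none under DMSO. Uty, a Kdm6a relative on the Y chromosome, had 32.3 under AZD2014 and 4.55 under rapamycin, and none under DMSO. Kdm5b and Ash2l completed the 6, each with a gene-end peak in the full AZD2014 list that lay below the 17189 highest scores, and none in the other lists. E2f6, which encodes the DNA-binding factor of the Pcgf6 variant, had 54.1 under AZD2014, 44.1 under rapamycin and 71.6 under DMSO, and Setd1b, a COMPASS methyltransferase gene, had 49.2, 37.2 and 23.0. E2f6 and Setd1b were picked once their values had been seen. The median rank shift of the 52 was -0.623 points for AZD2014 minus DMSO over 37 genes and -1.21 points for rapamycin minus DMSO over 36, against 2.12 and 1.69 points over the 39 members' shared gene-end peaks.

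Short motifs were searched on both strands in the 41 promoters of 300 bases that belong to members. The SP/KLF box GGGGCGGGG was in 13 of them (31.7%), from 12 genes, against 15.4% of 21263 promoters. Some of its matches overlap each other, and the overlapping inner promoters of Kdm2b hold the same matches. The members' promoters held more CG dinucleotides, with medians of 24 against 13, and the shares were not matched for this. The E-box CACGTG was in 9 (22.0%), against 7.84%. Its genes were Asxl2, Bap1, Bmi1, Cbx6, Cbx8, Kdm6a, Pcgf2, Phc2 and Phc3. The E2F letters TTTCCCGC were in 2 (4.88%, Phf19 and Suz12), against 1.41%, and the YY1 letters AAGATGGCG in 2 (4.88%, Phf19 and Phc3), against 1.83%. The NRF1 letters GCGCATGC were in 2 (4.88%), against 3.52%. The CRE TGACGTCA, the ETS letters CCGGAAGT and the AP-1 letters TGACTCA were in 1 each (2.44%), against 2.23%, 5.15% and 4.66%. A match says only that the letters are in the window.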
